A study of Mus musculus with 20 samples.

Results

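Genes that mark the endothelial lining of the liver were followed in the livers of 20 mice. The set holds 10 genes, 5 pan-endothelial (Pecam1, Cdh5, Kdr, Tek and Eng) and 5 sinusoidal (Stab1, Stab2, Lyve1, Clec4g and Oit3), out of 18193 genes measured. Members were taken by name, as every probe set that the platform annotation gives exactly 1 of these symbols, which yielded 14 probe sets out of 34945. Cdh5, Eng, Lyve1 and Clec4g each had 2 probe sets and the other 6 genes had 1. All mice were male C57BL/6J, 8 weeks old, killed after a 16 h fast and 4 weeks on a diet with 45 kcal% fat. The HFD group (10 mice) ate that diet alone, and the 002MSXH group (10 mice) ate it with 0.02% of an extract of maple syrup, labelled MSXH. No mouse carried a transgene per the labels, and each mouse gave 1 liver and 1 Affymetrix 3' expression array. Whole liver was used, so fewer endothelial cells and less RNA per endothelial cell cannot be told apart in any value given here.

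Liver sinusoids are lined by a fenestrated endothelium without a continuous basement membrane, which passes plasma to hepatocytes and clears waste macromolecules from blood. Its scavenger receptors and lectins (the stabilins, LYVE1, CLEC4G) distinguish it from the endothelium of large vessels, while junction proteins and growth factor receptors (CD31, VE-cadherin, VEGFR2, TIE2, endoglin) are shared by endothelium everywhere. Sinusoidal cells also send signals such as BMP and WNT ligands to hepatocytes, and they respond to hepatocyte VEGF and to BMP9 and BMP10 in blood.

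The deposited values lay between 5.17 and 15.01 on a log scale, with array medians between 6.5216 and 6.5226. Differences between mice were strongly compressed, the median probe set having an SD of 1.07e-05 over 20 arrays, so differences are not expressed as fold changes. Each difference is therefore given as a standardized difference, the mean of 002MSXH minus that of HFD over the pooled SD within groups, with its 95% interval. A level in SDs is the distance of a mouse from the mean of the 20 mice, over their SD. The tissue fitted its label, since 12 of 12 measured hepatocyte markers stood above every array median. All 10 endothelial genes did so too at the probe set used, the one of highest mean, while the second probe sets of Cdh5 and Clec4g lay below the median on 20 of 20 arrays. Mice 002MSXH 4 and 002MSXH 6 stood apart, with a skeletal muscle list at 3.50 and 1.40 SD against at most -0.0629 in HFD. They also stood above every HFD mouse on the adipocyte list (1.07 and 1.39, HFD at most 0.481) and on the mesothelial and lymphatic list (1.96 and 0.594, HFD at most 0.280). The part of such tissue in the endothelial values was not tested, and results are also given without them where that changes a call. Precision is limited by how many arrays there were.

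The comparison of 002MSXH with HFD asks whether adding the extract to a high-fat diet altered the endothelial markers of the liver. None of the 10 genes passed a limma adjusted p of 0.05, and neither did any other gene (0% of 18193). The adjusted p of the members ran from 0.357 to 0.918. At an unadjusted p under 0.05 there were 3 members, against 10.9% of all genes: Pecam1 and Oit3 lower in 002MSXH (2 of 10, where 4.31% of all genes were lower at that p) and Cdh5 higher (1 of 10, against 6.58%). These 3 were also the members whose interval left out 0. In all, 4 members stood higher and 6 lower, with a median standardized difference of -0.232, beside 0.0669 over all genes, 54.7% of which stood higher. These directions hold for the values as deposited. Once each array was centred on the median of its 18193 genes, 0 members and 1.26% of all genes stood higher. After quantile normalization, 2 members and 10.4% of all genes did. Without 002MSXH 4 and 6, 2 members had an unadjusted p under 0.05 (Pecam1 and Cdh5, with Oit3 at -0.796), and with a block by replicate number 1 did. With the probe sets of a gene averaged there were again 3, but Clec4g (-0.954, limma p 0.0491, adjusted p 0.451) took the place of Cdh5 (0.853, limma p 0.0842).

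**Figure D1:**
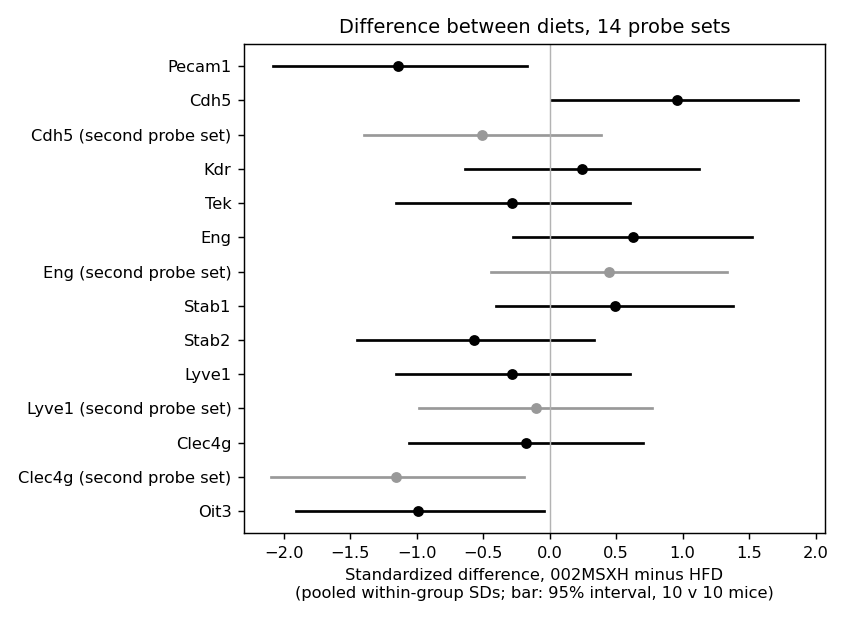
Standardized difference between diets (002MSXH minus HFD, in pooled within-group SDs, with 95% intervals, 10 against 10 mice) for the 14 probe sets, black for the probe set used and grey for the second. The intervals of Pecam1, Cdh5, Oit3 and the second Clec4g probe set leave out 0, and the 2 probe sets of Cdh5 lie on opposite sides of it; values are as deposited, and all 10 genes lie below 0 when arrays are centred.

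Among the adhesion molecules of the endothelial junction, Pecam1 (CD31, a homophilic immunoglobulin-type receptor; chromosome 11, 106654213 to 106715281 in GRCm38.p6) had the smallest p of the members. In HFD mice its lowest, median and highest levels were -1.72, 0.774 and 1.68 SD, and in 002MSXH mice -1.44, -0.300 and 0.574 SD. The groups overlapped, and although the 6 highest mice were all HFD, HFD 2 was the lowest of all. The standardized difference was -1.14 (interval -2.08 to -0.174; limma p 0.0180, adjusted p 0.357), and the 002MSXH mouse was higher in 20 of 100 pairs of a 002MSXH and an HFD mouse. On the log scale this difference was -4.16e-05. Without HFD 2 the standardized difference was -1.77 (limma adjusted p 0.220), and without HFD 4 it was -1.02 (limma adjusted p 0.409). Cdh5, which encodes VE-cadherin, the adhesive protein of endothelial adherens junctions (chromosome 8, 104101613 to 104144504), ran from -1.93 through -0.427 to 1.29 SD in HFD and from -1.18 through 0.582 to 1.33 SD in 002MSXH. Its standardized difference was 0.954 (0.0127 to 1.87; limma p 0.0489, adjusted p 0.454), and 76 of 100 pairs were higher in 002MSXH. The second probe set of Cdh5 had the opposite sign, at -0.512 (-1.40 to 0.387).

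The 3 growth factor receptors of the set differed less between diets. Kdr (VEGFR2, the main signalling receptor for VEGF-A; chromosome 5, 75932827 to 75979072) ran from -2.18 through -0.302 to 1.60 SD in HFD and from -1.87 through 0.0884 to 1.29 SD in 002MSXH. The groups overlapped over nearly their whole range, with a standardized difference of 0.244 (-0.639 to 1.12). It was 0.0226 without HFD 9 and 0.514 without 002MSXH 7. Tek (TIE2, the angiopoietin receptor; chromosome 4, 94739086 to 94874976) ran from -0.845 through 0.124 to 1.58 SD in HFD and from -2.24 through 0.109 to 1.21 SD in 002MSXH. Its medians were close and its 3 lowest mice were 002MSXH 8, 7 and 6, with a standardized difference of -0.285 (-1.16 to 0.601), which ran from -0.446 without 002MSXH 1 to -0.0624 without 002MSXH 8. Eng (endoglin, the co-receptor that presents BMP9 and BMP10 to ALK1; chromosome 2, 32646595 to 32682669) had standardized differences of 0.629 (-0.279 to 1.52) and 0.449 (-0.445 to 1.33) on its 2 probe sets. The first ran from 0.488 without 002MSXH 8 to 1.02 without 002MSXH 5, its lowest mouse (limma p 0.0428, adjusted p 0.453). Both had their lowest HFD mouse in HFD 9 and their highest in HFD 4.

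Of the sinusoidal scavenger receptors, Stab1 (stabilin-1; chromosome 14, 31139017 to 31168651), which macrophages also make, ran from -0.983 through -0.339 to 0.457 SD in HFD and from -1.52 through -0.00500 to 2.34 SD in 002MSXH. The 002MSXH mice enclosed the range of the HFD mice on both sides, with an SD 2.63 times theirs, and the standardized difference was 0.494 (-0.403 to 1.38). It was 0.748 without 002MSXH 1 and 0.297 without 002MSXH 8, the mice at either end. Stab2 (stabilin-2, the main hyaluronan clearance receptor; chromosome 10, 86841194 to 87008038) ran from -1.02 through 0.400 to 2.10 SD and from -1.51 through -0.266 to 1.93 SD. Its standardized difference was -0.567 (-1.45 to 0.336), and 30 of 100 pairs were higher in 002MSXH. The standardized difference ran from -0.955 without 002MSXH 2 (limma p 0.0496, adjusted p 0.456) to -0.395 without HFD 2. Lyve1, a hyaluronan-binding receptor of sinusoidal and lymphatic endothelium (chromosome 7, 110850607 to 110862953), stood at -0.282 (-1.16 to 0.603) and -0.107 (-0.983 to 0.772) on its 2 probe sets. The first ran from -0.558 without 002MSXH 8 to -0.104 without 002MSXH 5.

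Clec4g (LSECtin, a C-type lectin that binds glycans of glycoproteins; chromosome 8, 3707066 to 3720695) had a standardized difference of -0.182 (-1.06 to 0.699) on the probe set used, at a mean log level of 10.62. Its second probe set, at 6.40 and below every array median, stood at -1.16 (-2.10 to -0.195; limma p 0.0160 over all probe sets, adjusted p 0.356), and there HFD 9 stood far above the other HFD mice. Oit3, a secreted zona pellucida domain protein enriched in these cells (chromosome 10, 59422960 to 59441779), ran from -0.779 through 0.635 to 1.64 SD in HFD and from -1.80 through -0.643 to 1.52 SD in 002MSXH. Of the 10 002MSXH mice, 8 lay under the HFD median, and 002MSXH 7 and 2 lay above it. The standardized difference was -0.988 (-1.91 to -0.0431; limma p 0.0424, adjusted p 0.438), and 23 of 100 pairs were higher in 002MSXH. Over the 14 probe sets, 9 stood lower, and 3 had an unadjusted p under 0.05 in the fit over all probe sets, against 10.7% of 34945, with 0% past an adjusted p of 0.05. By subset, 3 of 5 pan-endothelial and 1 of 5 sinusoidal genes stood higher, with median standardized differences of 0.244 and -0.282, and the difference between the subsets was not tested.

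**Figure D2:**
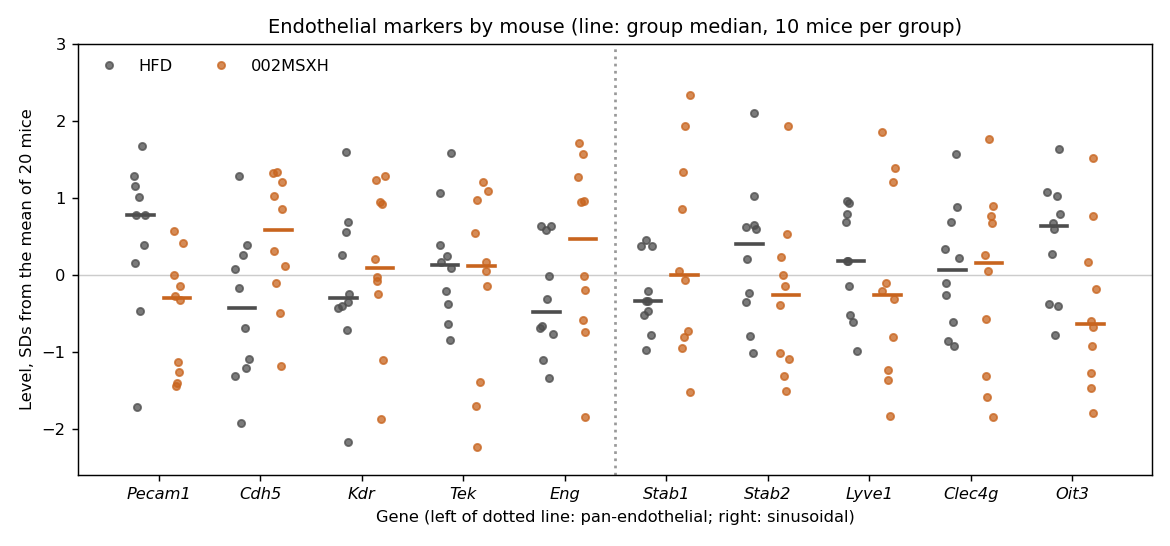
Level of each of the 10 genes in every mouse, in SDs from the mean of the 20 mice, with HFD in grey and 002MSXH in orange and a line at each group's median. The groups overlap for every gene. The 002MSXH mice spread wider than the HFD mice for Stab1 (SD 2.63 times that of HFD) and Lyve1 (1.79 times). They also do so for Tek (1.66), Eng (1.59), Clec4g (1.49) and Oit3 (1.36). Stab2 (1.12) and Kdr (1.03) differ little, and Pecam1 (0.760) and Cdh5 (0.876) spread less.

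Partners of the 10 genes in the same pathways were read from lists of endothelial genes, 152 measured genes in all. Of these, 89 stood higher and 63 lower, with a median standardized difference of 0.144. Of the same 152 genes, 6 stood higher under centring and 22 after quantile normalization. By limma 0 passed an adjusted p of 0.05, and 12 were higher and 6 lower at an unadjusted p under 0.05, shares close to those over all genes (6.58% higher and 4.31% lower). Among 11 VEGF ligands and receptors, 5 stood higher and 6 lower. Plxnd1, the semaphorin receptor plexin-D1, stood at 1.30 (limma p 0.00925, adjusted p 0.311) and Vegfb, a ligand of VEGFR1, at 0.778. The main ligand Vegfa stood at -0.0794 and the decoy-like receptor Flt1 at -0.0114. Among 8 genes of the angiopoietin pathway, 3 stood higher and 5 lower. Angpt2, the context-dependent antagonist of TIE2, stood at 0.907, Angpt1, its agonist, at -0.730, and Ptprb, the phosphatase that restrains TIE2, at -0.744, none of them at an unadjusted p under 0.05.

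Of 20 genes around endoglin and its ligands BMP9 and BMP10, 14 stood higher and 6 lower, with a median of 0.159. Tmem100, a target of ALK1 signalling, stood at -1.43 (limma p 0.00427, adjusted p 0.269) and Smad6, an inhibitory SMAD, at 1.32 (adjusted p 0.297). The ligand Gdf2 (BMP9) stood at -0.757 and the receptor Acvrl1 (ALK1) at 0.0199. Among 17 junction and adhesion genes, 12 stood higher and 5 lower. Ctnnd1, the p120 catenin that stabilizes VE-cadherin, stood at 1.20 (adjusted p 0.347) and Selp, P-selectin of activated endothelium and platelets, at 1.15 (adjusted p 0.352). Among 16 genes of hyaluronan and scavenger handling, 10 stood higher and 6 lower, with Gpnmb, a glycoprotein of phagocytic cells, at 1.23 and Has2, a hyaluronan synthase, at -1.07. Vegfa, Flt1, Angpt1, Gdf2 and Acvrl1 were named for their role and not by p.

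Other markers of the same cells were split between both directions as deposited. Of 22 further sinusoidal genes, 12 stood higher and 10 lower (median 0.0167), with the ligand Bmp2 at -0.976 (limma p 0.0389, adjusted p 0.431) and the transcription factor Maf at -0.718. Of 30 further pan-endothelial genes, 18 stood higher and 12 lower (median 0.134), with Ushbp1 at 1.41 (adjusted p 0.271) and Lmo2, a LIM-domain transcriptional adaptor, at 1.28 (adjusted p 0.311). Of 19 genes of large vessels and of capillarization, 10 stood higher and 9 lower, with Gja4, an arterial connexin, at -0.953. Of 19 genes of Notch signalling and the response to flow, 10 stood higher and 9 lower, with the Notch target Hes1 at 1.12 (adjusted p 0.367) and the endothelin receptor Ednrb at -1.10 (adjusted p 0.372). Centring each array on its median put Ushbp1, Lmo2, Plxnd1, Vegfb, Angpt2, Smad6, Ctnnd1, Selp, Gpnmb and Hes1 below 0, and quantile normalization left Lmo2 (0.0181) and Hes1 (0.248) above it. In the VEGF, angiopoietin, junction and Notch lists 0 genes stood higher under centring, and in the endoglin list 3 of 20 did.

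On the deposited scale, Lyve1 varied between mice far more than the other members. Its levels in HFD ran from 8.184 through a median of 8.188 to 8.191, and in 002MSXH from 8.180 through 8.187 to 8.195. The SD over 20 mice was 0.00391, which was 94.4 times that of the most variable of the other 9 members (Pecam1, 4.14e-05), and ranked 257 among the 18193 genes. The second Lyve1 probe set had an SD of 0.00161. How the values were processed is not known, and the part of the processing in this ratio was not tested. The highest mice were 002MSXH 8, 7 and 6, at 1.86, 1.39 and 1.20 SD, and the lowest were 002MSXH 5, 1 and 9, at -1.83, -1.37 and -1.24 SD. Both extremes therefore belonged to the 002MSXH group, whose SD was 0.00490 against 0.00274 in HFD. Whether the spread differed between the groups was not tested.

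The second probe set of Lyve1 followed the first closely. Over the 20 mice Pearson r between them was 0.978 (permutation p 1e-05, the smallest possible; adjusted p 4e-05 over the 4 genes with 2 probe sets), and Spearman rho was 0.976. Pearson r was 0.958 within HFD, 0.993 within 002MSXH and 0.971 with the 2 most distant mice left out (those farthest from the x-axis median, here and in later relations). The probe sets of Eng also varied together, with r of 0.650 (permutation p 0.00203, adjusted p 0.00406) and rho of 0.711. Those of Clec4g did so less, with r of 0.235 (permutation p 0.324) and rho of 0.140. Those of Cdh5 ran opposite, with r of -0.564 (permutation p 0.00964, adjusted p 0.0129) and rho of -0.463 (permutation p 0.0408, adjusted p 0.0543). The second Cdh5 probe set lay below every array median, at 6.03.

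**Figure D3:**
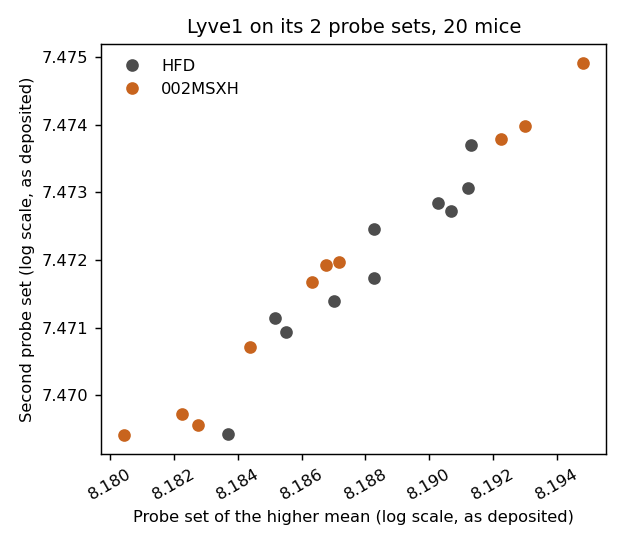
Lyve1 in each of 20 mice on its 2 probe sets, both axes on the deposited log scale, with HFD in grey and 002MSXH in orange. The points lie close to 1 line (Pearson r 0.978), with 002MSXH mice at both ends.

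The 10 genes did not vary as 1 unit between mice. Of their 45 pairs, 23 had a Pearson r above 0 and 22 below, with a median of 0.0240 and a range from -0.758 to 0.644. For comparison, the medians of the lists of other cell types ran from 0.0208 (hepatocyte, 66 pairs) to 0.968 (skeletal muscle, 105 pairs). The adipocyte list stood at 0.0528, and the macrophage and Kupffer cell list at 0.538 (136 pairs). A low median was thus not particular to the endothelial set, and these values are set beside it with no test. After Benjamini-Hochberg adjustment over the 45 pairs, 3 passed 0.05 by Pearson r and 4 by Spearman rho, with 2 pairs passing both: Lyve1 with Tek and Lyve1 with Kdr.

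Lyve1 and Tek ran opposite, with r of -0.758 (permutation p 0.00012, adjusted p 0.00540) and rho of -0.683 (adjusted p 0.0277). Within HFD r was -0.488, within 002MSXH -0.902, and with the 2 most distant mice (002MSXH 8 and 5) left out -0.719. That last value still holds 002MSXH 7 and 6. In 002MSXH 8, 7 and 6, the mice of highest Lyve1, Tek stood at -2.24, -1.71 and -1.39 SD, below all other mice. Lyve1 and Kdr ran opposite too, with r of -0.696 (permutation p 0.00065, adjusted p 0.0146) and rho of -0.740 (adjusted p 0.0139). The relation was seen in both groups, at -0.685 within HFD and -0.731 within 002MSXH, and leaving out the 2 most distant mice gave -0.718. Centring the arrays, which adds 1 shared shift per mouse to every gene, gave r of 0.0809 for Lyve1 with Tek and 0.0764 for Lyve1 with Kdr. Lyve1 and Clec4g had r of -0.508 (permutation p 0.0226, adjusted p 0.138), which was 0.421 within HFD, -0.890 within 002MSXH and -0.367 with the 2 most distant mice left out, and the gap between the groups was not tested.

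**Figure D4:**
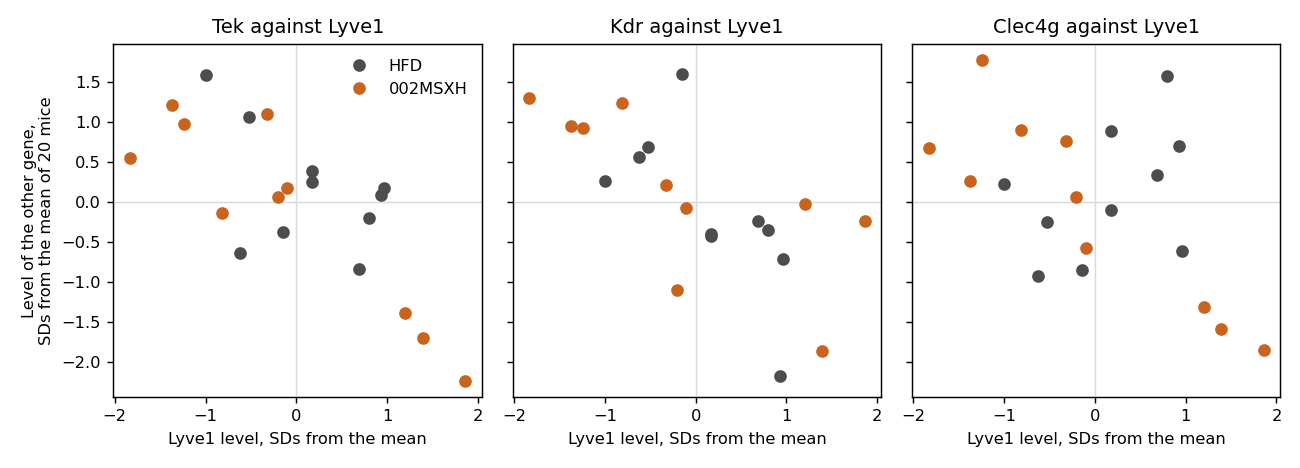
Tek, Kdr and Clec4g against Lyve1 in 20 mice, all in SDs from the mean, with HFD in grey and 002MSXH in orange. Tek and Kdr decline as Lyve1 goes up (r of -0.758 and -0.696), and for Clec4g this is seen among the 002MSXH mice (r of -0.890) and not the HFD mice (0.421).

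Tek and Clec4g were the 1 pair with a positive r past the threshold, at 0.644 (permutation p 0.00209, adjusted p 0.0313), but rho was 0.490 (adjusted p 0.170). Pearson r was 0.872 within 002MSXH and 0.0713 within HFD. It was 0.411 with the 2 most distant mice left out, 002MSXH 8 and 7, the lowest mice for both genes. Without 002MSXH 4 and 6 r was nearly as large, at 0.616, with an adjusted p of 0.0580. Eng with Stab1 (rho 0.633, adjusted p 0.0431; r 0.571, permutation p 0.00820, adjusted p 0.0850) and Cdh5 with Kdr (rho 0.630, adjusted p 0.0431; r 0.570, permutation p 0.00944, adjusted p 0.0850) passed by rank alone. Both held within each group, with r of 0.614 and 0.530 for the first and 0.575 and 0.586 for the second (HFD and 002MSXH). With the 2 most distant mice left out they were 0.423 and 0.526. Lyve1 had r of 0.436, 0.493 and 0.503 with Eng, Stab1 and Oit3, none past the adjusted threshold (permutation p 0.0550, 0.0258 and 0.0252, adjusted p 0.206, 0.138 and 0.138). Within HFD these were 0.0182, -0.349 and 0.537, so of the 3 the relation with Oit3 alone was positive and of like size in both groups (0.485 within 002MSXH).

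**Figure D5:**
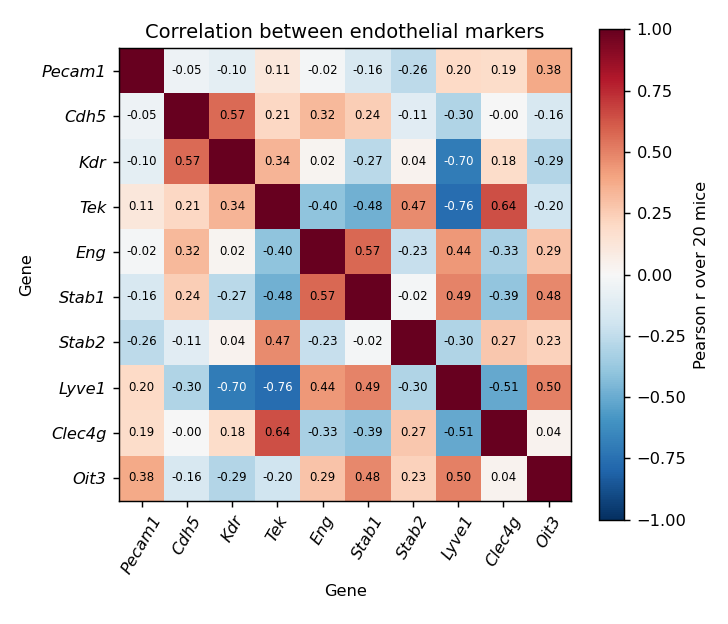
Pearson r over 20 mice for each pair of the 10 genes, red for positive and blue for negative. The darkest cells off the diagonal are Lyve1 with Tek (-0.758), Lyve1 with Kdr (-0.696) and Tek with Clec4g (0.644).

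The promoters of Tek and Clec4g, the pair with the highest r, are shown because the genes stood low in the same 3 mice. RefSeq's promoter windows (GRCm38.p6, from 250 bases before a transcription start to shortly after it) matched 6 of the 10 genes: Eng, Tek, Kdr, Clec4g, Stab2 and Stab1. Printed below are the 250 bases before the start, 5′ to 3′ on the strand of the gene, chr4:94739039-94739288 (+) for Tek and chr8:3720652-3720901 (-) for Clec4g, with motif matches in capitals.
Tek: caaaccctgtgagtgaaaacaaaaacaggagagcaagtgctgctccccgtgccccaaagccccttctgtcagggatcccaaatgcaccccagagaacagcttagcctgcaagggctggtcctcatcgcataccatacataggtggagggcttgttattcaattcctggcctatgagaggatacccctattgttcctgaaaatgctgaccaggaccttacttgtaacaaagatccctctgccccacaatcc
Clec4g: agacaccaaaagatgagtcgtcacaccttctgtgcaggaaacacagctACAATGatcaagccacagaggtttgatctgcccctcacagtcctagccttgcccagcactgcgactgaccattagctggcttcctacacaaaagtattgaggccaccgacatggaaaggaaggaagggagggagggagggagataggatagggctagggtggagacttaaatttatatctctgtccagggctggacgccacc
Capitals mark the SOX-type motif ACAATG in Clec4g, at position -202 from the start, and is on the printed strand. Searched on both strands of the whole windows, this motif was found in 1 of the 6 members and in 12.6% of all 32851 windows. The GATA-type motif AGATAA was found in 1 of 6, in Tek, 36 bases after the start and outside the stretch printed, and in 11.2% of all windows. The ETS-type motifs CCGGAAGT and CAGGAAGT (3.89% and 3.33% of all windows) and the KLF-type motif CCACACCC (3.56%) matched 0 of the 6. None of these motifs overlap one another in the printed stretches, and Tek and Clec4g shared no match.

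Genes most like each member between mice were sought among all other 18192 genes, by Pearson r over the 20 mice after each group's mean was taken off. They were mostly not endothelial markers. Each was picked for its extreme r among the 18192 genes, so these r values are a description and were not tested. Nearest to Lyve1 were Actn4, which encodes an actin crosslinker (r 0.932), and Tnfaip3, a ubiquitin-editing inhibitor of NF-kB (0.874). Nearest to Tek were the mitochondrial dynamics gene Mief2 (0.918) and Rarres1 (0.877). Nearest to Kdr were Mbl2, the mannose-binding lectin that hepatocytes secrete (0.906), and the phosphate transporter gene Slc17a2 (0.895). Nearest to Cdh5 were Ptprc (CD45, of all leukocytes, 0.877) and Wdfy3 (0.846). For Clec4g they were the acyl-CoA thioesterases Acot3 (0.817) and Acot4 (0.770), for Eng Pcyt2 (0.843) and Adam26a (0.801), and for Stab2 Coq2 (0.889) and Gatb (0.822). Some differed between groups, such as Adam26a with Eng (0.430 within HFD, 0.952 within 002MSXH) and Acot4 with Clec4g (0.455 and 0.956). Others were alike, such as Ptprc with Cdh5 (0.885 and 0.883).

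Stab1 was nearest to Chka (0.786) and Atp6v1b2 (0.777), Pecam1 to Zfp62 (0.810) and Larp7 (0.808), and Oit3 to Gm19461 (0.776) and C330022C24Rik (0.767). Within the set, the closest neighbours were Stab1 and Oit3, at r of 0.698 after group means were taken off. Their r was 0.255 within HFD and 0.856 within 002MSXH. With group means left in it was 0.482 (permutation p 0.0307, adjusted p 0.138). Stab1 was 9th of 18192 in the list of Oit3, and Oit3 was 36th in that of Stab1. Tek was 73rd in the list of Clec4g, and no other member was among the first 100 of any member.

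The wide spread of Lyve1 was set beside the 561 other genes whose SD exceeded 0.001, a choice made after its values were seen. By the same measure, 23 of them had r above 0.7 with Lyve1 and 70 had r below -0.7. At the positive end were Asic5 (0.854), a bile acid-sensitive ion channel, the sterol hydroxylase gene Cyp39a1 (0.847), Myh10, a nonmuscle myosin heavy chain (0.823), and the steroid hydroxylase gene Cyp17a1 (0.816). At the negative end were Abcg2, an efflux transporter (-0.883), Nox4, an NADPH oxidase (-0.874), and Akr1c6, a hydroxysteroid dehydrogenase (-0.873). Cyp17a1 and Lyve1 had r of 0.799 within HFD and 0.840 within 002MSXH, and Akr1c6 and Lyve1 -0.777 and -0.901. Cyp17a1 itself ran from 8.038 to 8.711 on the log scale. These genes were picked as extremes, so their r values are a description.

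Levels of other cell types were set beside the mean standardized level of the 10 genes. This mean ran from -0.448 to 0.706 in HFD and from -0.496 to 0.738 in 002MSXH. Since the 10 genes had a median pair r of 0.024, it is not a measure of 1 level shared by them. With Benjamini-Hochberg adjustment over 11 lists, 0 passed by Pearson r and 2 by Spearman rho. Macrophage and Kupffer cell markers (17 of 18 measured, 16 above every array median) went with the endothelial level, at rho 0.624 (permutation p 0.00373, adjusted p 0.0223) and r 0.545 (permutation p 0.0127, adjusted p 0.0699). Pearson r was 0.578 within HFD, 0.645 within 002MSXH and 0.672 with the 2 most distant mice left out. The lists share array shifts with the members, and under centring 11 of 11 lists passed. The macrophage level ran from -0.741 to 0.866 in HFD and from -1.01 to 1.41 in 002MSXH. Its lowest mouse was 002MSXH 4, and 002MSXH 6 stood at -0.909. The part of the macrophage level in the endothelial values was not tested. Cholangiocyte markers, of which 1 of 8 stood above every array median, went opposite, at rho -0.620 (permutation p 0.00405, adjusted p 0.0223) and r -0.565 (permutation p 0.00911, adjusted p 0.0699). With the 2 most distant mice left out r was -0.454, and it was -0.611 within HFD and -0.504 within 002MSXH. Mouse 002MSXH 4 had both the highest cholangiocyte level (0.854) and the lowest endothelial level (-0.496). Stellate cell markers had r of -0.146 and hepatocyte markers -0.0844, with adjusted p of 0.825 for both.

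Lyve1 alone, tested in the same way after its spread was seen, went with the hepatocyte list at r 0.614 (permutation p 0.00330, adjusted p 0.0363) and rho 0.645 (adjusted p 0.0273). Within HFD r was 0.580, within 002MSXH 0.769, and with the 2 most distant mice left out 0.511. Without 002MSXH 4 and 6 r was 0.601 and the adjusted p 0.0859. The hepatocyte list had a median pair r of 0.0208, so its mean is not a measure of 1 shared level either. With the macrophage list Lyve1 had r of -0.413 (permutation p 0.0708, adjusted p 0.390), and with the mesothelial and lymphatic list r of 0.150 (permutation p 0.544, adjusted p 0.748).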

How the data were processed

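Biotin-labelled liver RNA of each mouse (10 HFD, 10 002MSXH) was hybridised to a 3' array, per the labels. The authors deposited 1 value per probe set and array, read here as log2 from its range. How they corrected background, normalized and summarized probes, and the log base, is not given in the sources used here. No values were rescaled before the main test. Of 45101 probe sets, 34945 that are not controls had 1 gene symbol, 932 had several and 9211 were not listed; the GRCm38.p6 annotation held the gene IDs of 34741, with 0 changes of symbol. A gene with several probe sets was given the one of highest mean over all arrays, with no filter on level. No 2 arrays were identical.

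Groups were compared with limma 3.58.1 in R 4.3.3 (lmFit, eBayes with a variance trend; two-sided; residual degrees of freedom 18, prior 0.704; Benjamini-Hochberg over all 18193 genes, and separately over all 34945 probe sets). Intervals are 95% noncentral t intervals. Correlations over mice have two-sided permutation p values from 100000 permutations. Python 3.11.15, numpy 2.4.6, scipy 1.17.1 and matplotlib 3.10.9 were used, and the fit was checked on simulated data. The members, lists, motifs and alternatives were chosen with earlier results of these data known. Named genes were all members, the 2 genes of smallest p of each endothelial list and the 2 genes most like each member; exceptions are stated where they occur. The arrays are labelled as biological replicates.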

Additional observations from a re-analysis of the deposited data

Results flagged for a closer look

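Of 28 groups of 10 mice (14 probe sets in 2 groups), 1 held a mouse far from the others, where chance flags about 1 in 20 groups. On the second probe set of Clec4g, HFD 9 stood at 3.04 SD, and its gap to the next HFD mouse was 0.489 of the group's range, past Dixon's critical value. This probe set lay below the median on 20 of 20 arrays.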

How the results depend on the processing

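No member passed an adjusted p of 0.05 under any of 299 alternatives of single members (lowest 0.142), and 15 of these turned the sign. Centring used the array median over the 18193 genes tested, and moved the median gene difference from 5.29e-07 as deposited to -0.000528. The array median over all 45101 probe sets, which was not the one used for centring, differed less between the groups. It differed by 0.000162 on the log scale, more than the SD of 9 of the 10 members. Without 002MSXH 4 and 6 the difference over all probe sets was 1.74e-06, less than the SD of any member. That is not the shift applied by centring without these mice, whose size is not given here. Centring put 0 of 10 members higher (Cdh5 -0.733, Kdr -0.736, Eng -0.736, Stab1 -0.706), and without 002MSXH 4 and 6 again 0 (Cdh5 -0.358, Kdr -0.377, Eng -0.369, Stab1 -0.254). Quantile normalization put 2 higher (Cdh5 0.154, Kdr 0.195), while Eng (-0.480) and Stab1 (-0.178) turned lower. Quantile normalization without 002MSXH 4 and 6, an alternative chosen after seeing the data, put 7 higher. Among these were Tek (0.0430), Stab2 (0.834) and Clec4g (0.0973), which stood lower as deposited with all mice. As deposited, Clec4g was 0.0273 without 002MSXH 4 and 6 and from -0.419 to 0.00994 with 1 array left out (above 0 without 002MSXH 8). The count of members at an unadjusted p under 0.05 was 0 under quantile normalization of all mice, 2 under quantile normalization without 002MSXH 4 and 6 (Cdh5 1.32, Kdr 1.01), and 0 under centring with or without these mice. It ran from 1 to 3 with 1 array left out, being 1 without HFD 4, 7 or 10 or 002MSXH 1, 4, 9 or 10. Over all genes, 1 passed the adjusted threshold with mean probe sets (Tnfrsf22), 4 by the rank sum test, and 0 to 3 with 1 array left out (3 without HFD 3; 1 without HFD 6, HFD 9, 002MSXH 2 or 002MSXH 3), none a member. At an unadjusted p under 0.05 there were 810 genes under quantile normalization, 187 under centring, 134 under centring without 002MSXH 4 and 6 and 986 among genes above the median gene, where fewer genes were tested.

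Centring also gave 36 member pairs past the threshold and 11 of 11 lists going with the endothelial level, and turned Lyve1 with Kdr (0.0764) and Lyve1 with Tek (0.0809), since it adds the same array shift to every gene. Without 002MSXH 4 and 6, 0 lists passed for Lyve1. Mice of the same replicate number were not alike in these values: they correlated at -0.265 to 0.165, and 1 of 10 HFD mice correlated best with its own number. Low correlations cannot show that the numbers carried no shared handling. With the replicate block, 0 genes passed and 1 member (Pecam1, -1.19) had an unadjusted p under 0.05.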
